A study of Mus musculus with 16 samples.

Results

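The potassium channel genes were taken as the protein-coding genes of the deposited count table whose symbol is Kcn, then lower case letters for the subfamily, then a number. This gave 93 of the 40481 genes listed, in 20 subfamilies, and left out 5 antisense genes with such names. The libraries came from brain tissue of male C57BL mice (C57BL/6J in the study's text) bought at 18 months of age, with no transgene in either group. A group of 8 mice had received adropin(34-76), the predicted secreted part of the peptide adropin, at 90 nmol/kg/d by i.p. injection, and 8 control mice had received the saline diluent with albumin. The mice were sequenced out of 15 treated per group, all had been through behavioral testing while injections went on, and all were fasted for 6 h before collection. The sources used here do not state how the sequenced mice were picked, or which part of the brain was taken. The comparison asks whether the peptide alters transcript levels in the old brain, here for the channels that set neuronal excitability.

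Potassium channels are pores that let potassium ions cross the cell membrane, mostly outward, which returns a neuron to rest and limits its firing. Voltage-gated channels open on depolarization and shape the action potential, inward rectifiers and two-pore domain channels hold the resting potential, and calcium- or sodium-activated channels open when those ions accumulate in the cell. Electrically silent subunits form no channel alone and modify Kcnb channels, while auxiliary subunits change the gating or trafficking of a pore. In the brain, astrocytes also use inward rectifiers to clear potassium released by active neurons.

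Gene counts summed to between 35026503 and 70314050 per mouse, and 14949 genes passed the filter of more than 1 CPM (counts scaled to the library total) in at least 7 mice. Neuron markers summed to 7353 to 8818 TMM-normalized CPM (CPM scaled by edgeR's size factors) in each of the 16 libraries, in keeping with the label brain. Saline-treated mouse 8_3 stood apart, with 2460 TMM-normalized CPM over 5 choroid plexus markers against at most 73.4 in the adropin group, and 699 over 5 cerebellum markers against at most 259. Each mouse is called here by the numbers of its label. In these bulk samples, fewer cells of a type and less RNA per cell cannot be told apart.

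Of the 93 genes, 75 passed the filter and could be compared, 71 of them above 1 CPM in every mouse, and each of the 20 subfamilies had a member tested. The 18 others had a mean of 0.00543 to 0.800 TMM-normalized CPM: Kcna7, Kcna10, Kcne1, Kcne2, Kcne3, Kcnh8, Kcnj1, Kcnj5, Kcnj13, Kcnj15, Kcnk7, Kcnk15, Kcnk16, Kcnk18, Kcnmb3, Kcnn4, Kcnq1 and Kcnv2. Just inside the filter were Kcnk5 and Kcnmb1, each above 1 CPM in 8 mice (3 adropin, 5 saline), with means of 1.07 and 1.03 TMM-normalized CPM. Just outside was Kcnj5, a subunit of the channels opened by G protein-coupled receptors, above 1 CPM in 2 mice with a mean of 0.586.

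Levels of the 75 genes spanned from 0.246 TMM-normalized CPM per kb of exon in Kcnmb1 to 121 in Kcnab2, with a median of 5.46. Kcnab2, a cytoplasmic subunit of Kcna channels, was followed by the inward rectifier Kcnj4 at 70.5 and by Kcnip3, a calcium-binding subunit of Kcnd channels, at 46.3 per kb. The highest voltage-gated pore was Kcna1 at 45.4 per kb, which sits along axons. This level and that of Kcnip3 lay within the spread between mice, with coefficients of variation (SD pooled within the groups, over the mean) of 21.2% and 10.6%. Kcnh3 reached 40.1 and the two-pore channel Kcnk1 39.7 per kb. The subfamilies with the lowest median levels per kb were Kcnu at 0.878, Kcnmb at 0.929 and Kcne at 1.30. Within the groups, the coefficient of variation of a gene was lowest in Kcnj4 (5.58%) and highest in Kcnh5 (50.7%), with a median of 18.1%.

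**Figure D1:**
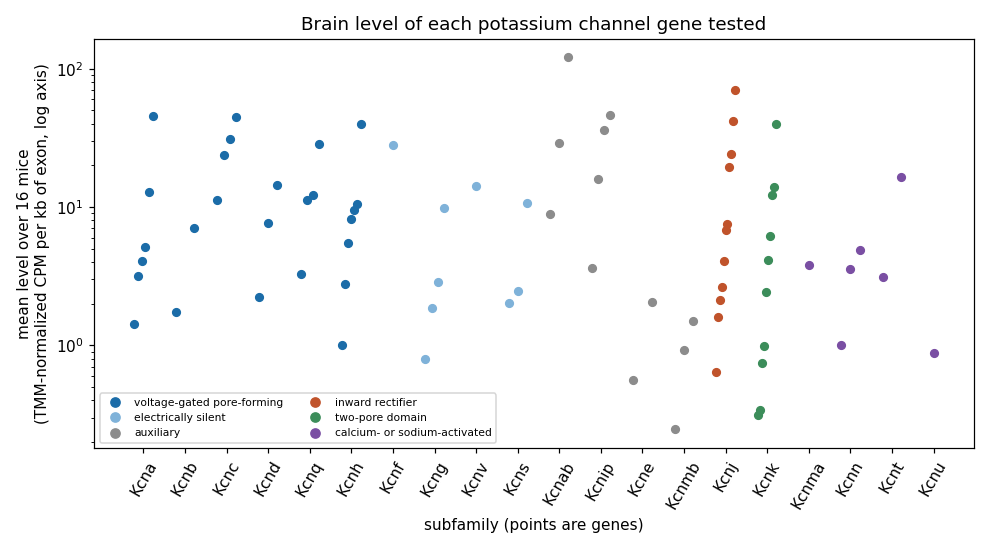
Mean level over the 16 mice of the 75 potassium channel genes tested, in TMM-normalized CPM per kb of exon on a log axis, by subfamily on the horizontal axis. Each point is a gene, coloured by channel class, and the range runs from 0.246 in Kcnmb1 to 121 in Kcnab2.

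After adropin treatment no potassium channel gene differed from the saline group once p-values were adjusted over all genes (edgeR quasi-likelihood test, Benjamini-Hochberg, 0 of 75, smallest adjusted p = 0.874). This was also the case for all 14949 genes (0%). Without adjustment, 7 genes were higher in adropin-treated mice at p below 0.05, or 9.33% of those tested against 1.86% of all genes, and 0 were lower, against 2.13% of all genes (in either direction 7 of 75, against 3.99%). DESeq2 called 10 higher and 0 lower at that unadjusted threshold, where 2.05% of all genes were higher and 2.70% lower, and limma-voom 8 and 0, where 1.99% were higher and 1.99% lower. Both called 0 members after adjustment. A two-sided exact permutation test over the 12870 divisions of the mice, run gene by gene on mean log2 TMM-normalized CPM, gave 5 of the 75 below 0.05, all higher with adropin (Kcnq3, Kcnj4, Kcnh7, Kcnt2 and Kcnv1), or 6.67% against 1.81% of all genes, and 0 lower against 1.87% (in either direction, 3.68% of all genes). Its p, not adjusted for the 75 genes, is given below with the genes described class by class. Those described here are Kcnq3, Kcnt2, Kcnh7, Kcnv1, Kcnj4 and Kcnb2, with log2 fold changes between 0.11 and 0.33. The log2 fold change was above 0 in 56 of the 75 genes (74.7%, against 49.2% of all genes), with a median of 0.10 against -0.0019 for all genes tested. In 58 of the 75 the 95% interval of the fold change lay within 1.5-fold in either direction (77.3%, against 90.4% of all genes), and the 8 adropin values overlapped the 8 saline values for every member (0.00669% of all genes had no overlap).

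The count of 7, beside 1.86% of all genes, rested in part on single mice. It was 3 without adropin-treated mouse 1_3 (1.08% of all genes), 17 without adropin-treated mouse 4_3 (6.16%) and 14 without adropin-treated mouse 3_3 (3.26%). It was 13 without saline-treated mouse 5_3 (4.23%) and 13 without saline-treated mouse 7_1 (3.19%). With 2 covariates described below the count was lower: 0 with the cortex marker level (1.24% of all genes) and 1 with the level of Gm42418 (0.937%). Kcnq3 and Kcnt2 kept p below 0.05 in all 16 fits that each left out 1 mouse, Kcnh7 in 15, Kcnv1 in 13, Kcnj4 in 7 and Kcnb2 in 6.

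**Figure D2:**
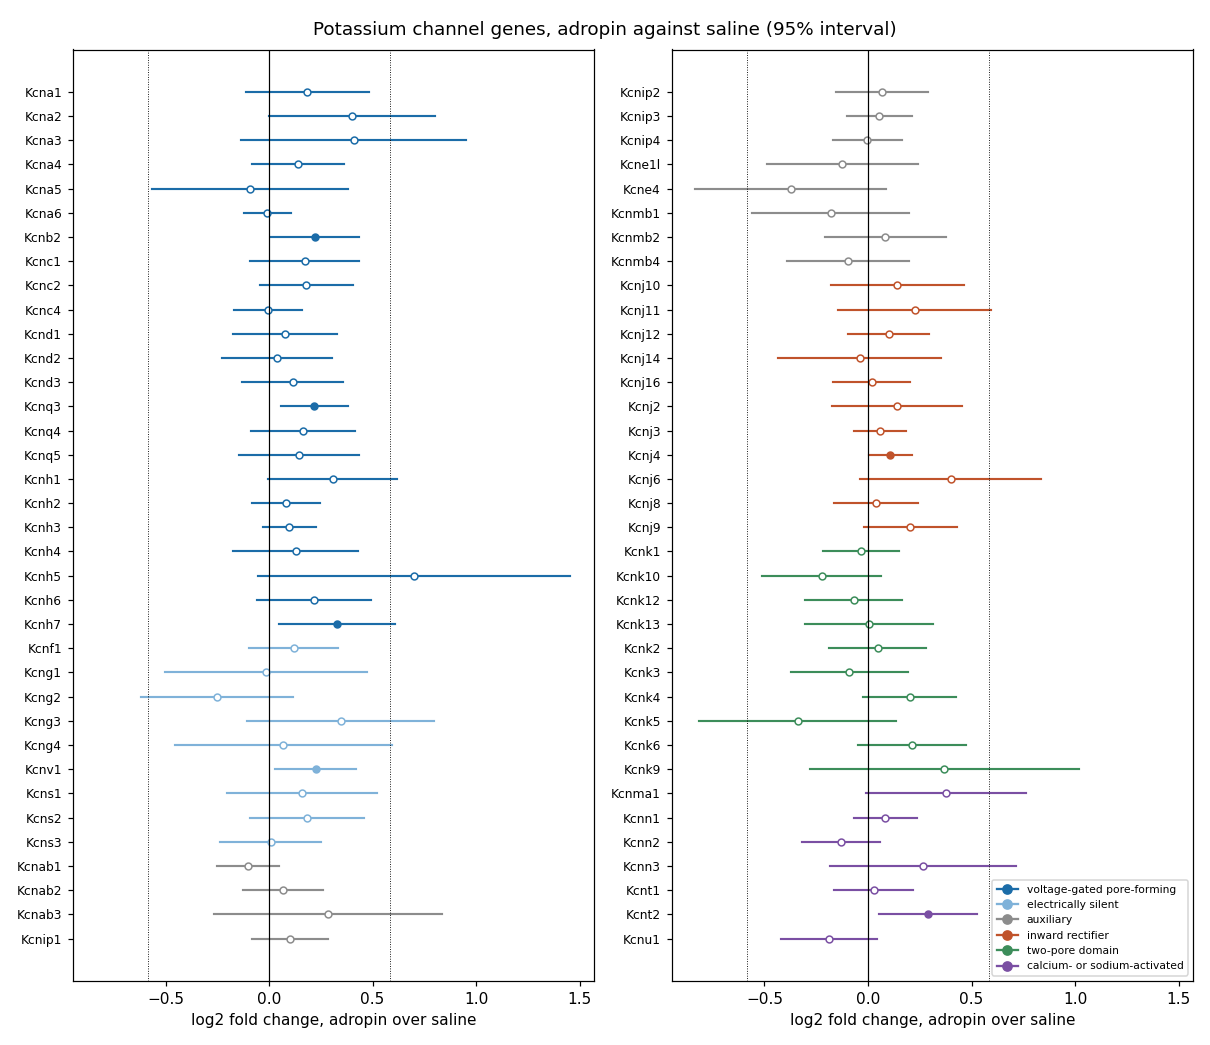
Log2 fold change of 72 of the 75 potassium channel genes, adropin over saline, on the horizontal axis, with its 95% interval as a bar and colours for the channel class (n = 8 mice a group). Filled points mark 6 genes with an unadjusted p below 0.05, dotted lines mark 1.5-fold, and 53 of the 72 points lie right of 0.

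Among the voltage-gated pore-forming genes, 23 of the 26 tested had a log2 fold change above 0, with a median of 0.16, and 4 were higher at an unadjusted p below 0.05, against 49.2% of all genes above 0 and 1.86% higher. Kcnb2 encodes a delayed rectifier found on the cell bodies and dendrites of neurons. Kcnb2 (ENSMUSG00000092083, GRCm38 chr1:15287254-15723750, plus strand) ran from 21.1 to 32.3 TMM-normalized CPM (median 29.9) in the adropin group and from 18.1 to 30.2 (median 23.5) in the saline group, with a log2 fold change of 0.22 ± 0.10 (SE; exact permutation p = 0.0609, edgeR adjusted p = 0.874). The strand setting of the counting is not given, so reads of genes whose exons overlap on opposite strands may be mixed. Such overlaps on the other strand touch 15 of the 93 genes, among them Kcnh3, Kcnk3, Kcnmb4, Kcnn1 and Kcnn2, and 2 genes, Kcnab2 and Kcnk4, share exon sequence with a gene on their own strand.

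Kcnq3 encodes a subunit of the channel of the M-current, a slow brake on repetitive firing. The gene (ENSMUSG00000056258, chr15:65986387-66286642, minus strand) ran from 165 to 223 TMM-normalized CPM (median 199) in adropin-treated mice and 134 to 192 (median 168) in the controls. The 4 highest of the 16 values were all from adropin-treated mice, and the lowest was mouse 8_3. Its log2 fold change of 0.22 ± 0.078 (SE) had the smallest edgeR p of all members (exact permutation p = 0.0179, edgeR adjusted p = 0.874). All 4 Kcnq genes tested had higher means in the adropin group, with a median log2 fold change of 0.16.

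Kcnh7 belongs to the ether-a-go-go family and carries a slow current that opposes depolarization. The gene (ENSMUSG00000059742, chr2:62693414-63184287, minus strand) ran from 106 to 187 TMM-normalized CPM (median 140) after adropin and from 60.3 to 128 (median 113) after saline, where mouse 6_1 was far below the other controls, the next of which was at 109. The 5 highest of the 16 values were from adropin-treated mice. The log2 fold change was 0.33 ± 0.13 (SE; exact permutation p = 0.025, edgeR adjusted p = 0.874), and exons of Kcnh7 overlap those of Gca on the other strand. All 7 Kcnh genes tested had higher means after adropin (median log2 fold change 0.22). Kcnh3, the most abundant of them per kb, had one of 0.098 (exact permutation p = 0.111). The largest log2 fold change of any member was that of Kcnh5 in this family, at 13.9 ± 6.61 against 8.59 ± 4.63 TMM-normalized CPM (SD), or 0.70 ± 0.36 on the log2 scale (SE; exact permutation p = 0.11, edgeR adjusted p = 0.874). Its 95% interval, 0.965-fold to 2.74-fold, was the widest in its upper bound, and its coefficient of variation was the highest of the 75. With the cortex marker covariate described below, the log2 fold change of Kcnh5 was -0.015.

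In the Kcna subfamily of axonal low-threshold channels, 4 of the 6 genes tested had higher means after adropin (median log2 fold change 0.16) and none passed the unadjusted threshold. Kcna2 was at 69.3 ± 17.2 against 52.6 ± 16.1 TMM-normalized CPM (SD), or 0.40 on the log2 scale (exact permutation p = 0.0814). Kcna3 had a like value, 0.41, at a low level of 6.84 ± 2.10 against 5.15 ± 2.19 (SD; exact permutation p = 0.142). Kcna1 was at 231 ± 54.6 against 203 ± 35.2 (exact permutation p = 0.309). The Kcnc genes had a median log2 fold change of 0.10 and the Kcnd genes, which carry the fast transient current of dendrites, one of 0.077. For Kcnd2 the means were 75.1 ± 14.4 and 73.0 ± 13.4 TMM-normalized CPM (SD; exact permutation p = 0.782).

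Of the 9 electrically silent genes tested, 7 had higher means after adropin, with a median log2 fold change of 0.12. Kcnv1 (ENSMUSG00000022342, chr15:45106284-45114920, minus strand), which modifies Kcnb channels, ran from 58.8 to 92.4 TMM-normalized CPM (median 64.1) with adropin and from 52.7 to 71.4 (median 58.1) with saline. All 8 adropin-treated mice lay above the saline median, and the 3 highest of the 16 were from the adropin group, although 2 saline-treated mice lay above the adropin median. The log2 fold change was 0.22 ± 0.093 (SE; exact permutation p = 0.0469, edgeR adjusted p = 0.874). Kcnf1, the most abundant silent gene per kb, was at 139 ± 16.6 against 128 ± 23.0 (SD; exact permutation p = 0.271). Kcns1 had a log2 fold change of 0.16 and Kcng1 one of -0.016 (exact permutation p = 0.473 and 0.765). Kcng2 went the other way without passing the threshold, at 7.87 ± 2.23 against 9.38 ± 2.29 (SD; exact permutation p = 0.186).

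Of the 11 inward rectifiers tested, 10 had higher means in the adropin group, with a median log2 fold change of 0.11. Kcnj4, a strong rectifier of forebrain neurons, was the most uniform member between mice of a group. The gene (ENSMUSG00000044216, chr15:79483714-79505241, minus strand) ran from 148 to 169 TMM-normalized CPM (median 156) after adropin and from 137 to 166 (median 141) after saline, with every adropin-treated mouse above the saline median. The difference was small, a log2 fold change of 0.11 ± 0.049 (SE; exact permutation p = 0.0176, edgeR adjusted p = 0.874), or 1.08-fold with a 95% interval of 1.004 to 1.16. Kcnj6, a channel opened by G protein-coupled receptors, was at 18.4 ± 5.98 against 14.01 ± 3.93 (SD; exact permutation p = 0.142). The genes of glia and vessels did not pass the unadjusted threshold. Kcnj10, which clears potassium into astrocytes, was at 136 ± 30.3 against 124 ± 25.6 (SD; exact permutation p = 0.456), and its partner Kcnj16 at 26.9 ± 2.56 against 26.5 ± 4.33 (exact permutation p = 0.769). Kcnj8, the pore of pericyte channels that are closed by ATP, was at 4.16 ± 0.573 against 4.05 ± 0.358 (SD; exact permutation p = 0.721). The 95% intervals of these fold changes ran from 0.884 to 1.38 for Kcnj10, 0.890 to 1.15 for Kcnj16 and 0.893 to 1.18 for Kcnj8.

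**Figure D3:**
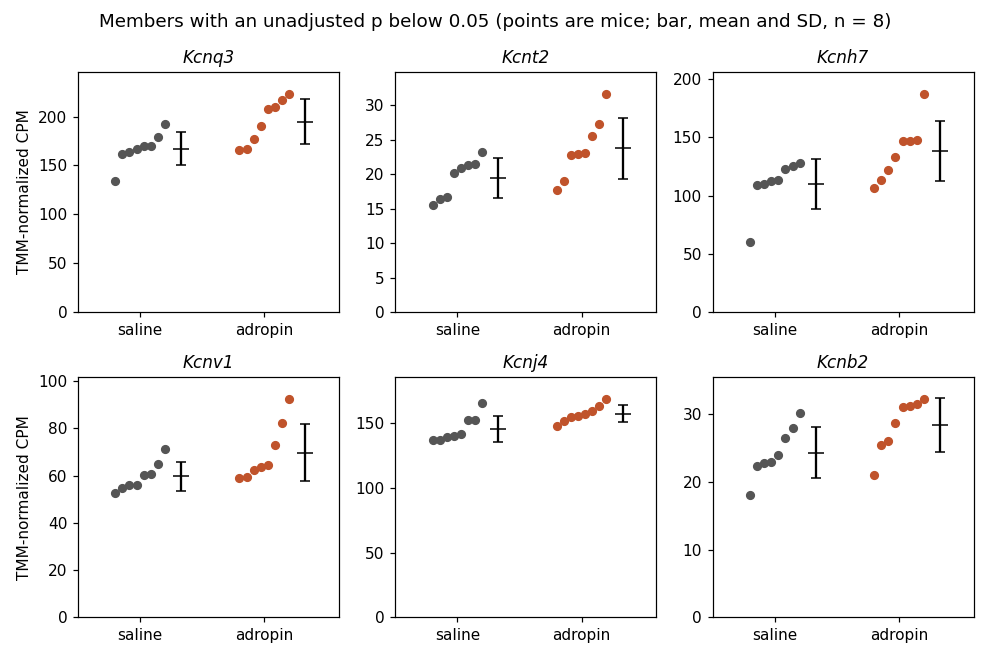
TMM-normalized CPM, on axes starting at 0, of 6 potassium channel genes with an unadjusted p below 0.05, for saline-treated and adropin-treated mice. Each point is a mouse, placed in order of its value, and the bar gives the mean and SD (n = 8); the groups overlap in each panel.

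The genes classed here as calcium- or sodium-activated, with Kcnu1 counted among them, numbered 7 tested. Of these, 5 had higher means after adropin (median log2 fold change 0.084). The class is a grouping of subfamilies, and what opens each channel was not measured. Kcnt2 (ENSMUSG00000052726, chr1:140246158-140612067, plus strand), a sodium-activated channel, ran from 17.7 to 31.6 TMM-normalized CPM (median 22.9) with adropin and from 15.5 to 23.1 (median 20.5) with saline. The 3 highest values were from adropin-treated mice, and mice 4_3 and 3_3 were the lowest of their group. The log2 fold change was 0.29 ± 0.11 (SE; exact permutation p = 0.0378, edgeR adjusted p = 0.874), and Kcnt1, the related channel, had one of 0.028 (exact permutation p = 0.66). Kcnma1, the large-conductance channel opened by calcium and voltage together, was at 73.1 ± 17.9 against 56.4 ± 17.1 (SD; exact permutation p = 0.0876). Kcnn2, a small-conductance channel of dendritic spines, was at 25.4 ± 3.45 against 27.7 ± 3.41 (SD; exact permutation p = 0.186), and Kcnn1 had a log2 fold change of 0.084 (exact permutation p = 0.276). Kcnu1, whose channel is known from sperm, was at 3.07 ± 0.518 against 3.50 ± 0.353 (exact permutation p = 0.0688).

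The two-pore domain and auxiliary genes were spread to both sides of 0. Of the 10 two-pore genes tested, 5 had higher and 5 lower means after adropin (median log2 fold change -0.015), and of the 12 auxiliary genes 6 and 6 (median 0.026), with 0 at an unadjusted p below 0.05 in each class. Kcnk1, the most abundant two-pore gene per kb, was at 87.8 ± 10.0 against 89.8 ± 12.5 TMM-normalized CPM (SD; exact permutation p = 0.763). Kcnk10, a channel gated by stretch and lipids, was below the saline median in all 8 adropin-treated mice, with means of 2.76 and 3.23 (exact permutation p = 0.135). The lowest log2 fold changes of the 75 were those of Kcne4, at -0.37 ± 0.22 (SE; exact permutation p = 0.0847), and Kcnk5, at -0.34 ± 0.23 (SE; exact permutation p = 0.125). Both were at low levels, with means of 1.28 and 0.941 TMM-normalized CPM in the adropin group and 1.68 and 1.21 in the saline group. The 2 Kcne genes tested and 2 of the 3 Kcnmb genes, subunits that modify Kcnq and Kcnma1 channels, had log2 fold changes below 0. Kcne1l, the more abundant Kcne gene per kb, had one of -0.12 and Kcnmb4 one of -0.095 (exact permutation p = 0.646 and 0.587). Kcnab2 and Kcnip3, the most abundant auxiliary genes per kb, had values of 0.066 and 0.054 (exact permutation p = 0.536 and 0.458).

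RefSeq promoter windows on GRCm38 matched 68 of the 93 genes, 53 of the 75 tested and 3 of the 7 past the unadjusted threshold. The 250 bases before the RefSeq start of these 3 are given because these genes passed the unadjusted threshold, written 5' to 3' on the strand of the gene. Kcnt2 lies on the plus strand (chr1:140245468-140245717), Kcnh7 on the minus strand (chr2:63184288-63184537) and Kcnj4 on the minus strand (chr15:79505242-79505491). Capitals mark a match to a motif searched.
Kcnt2: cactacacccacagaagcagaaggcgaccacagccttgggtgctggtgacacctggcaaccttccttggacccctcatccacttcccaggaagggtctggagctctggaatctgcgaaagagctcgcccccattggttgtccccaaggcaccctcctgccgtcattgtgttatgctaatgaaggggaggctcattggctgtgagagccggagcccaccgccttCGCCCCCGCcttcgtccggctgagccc
Kcnh7: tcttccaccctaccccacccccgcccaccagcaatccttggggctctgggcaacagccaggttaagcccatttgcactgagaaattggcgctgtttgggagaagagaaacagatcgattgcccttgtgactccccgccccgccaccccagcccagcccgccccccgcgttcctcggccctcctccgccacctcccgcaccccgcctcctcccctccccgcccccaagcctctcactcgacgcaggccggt
Kcnj4: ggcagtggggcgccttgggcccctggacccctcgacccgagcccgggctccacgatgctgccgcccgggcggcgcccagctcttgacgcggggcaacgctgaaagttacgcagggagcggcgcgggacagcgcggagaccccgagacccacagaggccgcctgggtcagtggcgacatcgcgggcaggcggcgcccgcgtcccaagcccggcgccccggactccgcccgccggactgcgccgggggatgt
The motifs were the letters GCGNGGGCG bound by EGR factors, TGACGTCA bound by CREB, TGANTCA bound by AP-1, TTCAGCACC from the left arm of the site of the neuronal repressor REST, and TATAAA, each searched on both strands. None of these strings contains another. Kcnt2 holds the EGR letters, as do 3 of the 68 windows (4.41%) and 5.33% of the 27025 genes with a window. The CREB letters occurred in 0 of the 68 windows against 1.77% of all, the AP-1 letters in 4 (5.88% against 7.82%), the REST letters in 1 (1.47% against 0.348%) and TATAAA in 3 (4.41% against 14.3%). Median GC content was 58.8% over the 68 windows, 67.6% over the 3 printed and 52% over all genes. A match describes the letters only.

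Exon length moved with the comparison across all genes. From the shortest to the longest quintile of genes by exon length, the median log2 fold change of all genes tested went from -0.075 to 0.059, and the share above 0 from 24.6% to 72.6%. The potassium channel genes followed the same order, with medians of -0.032, 0.040, 0.084, 0.099 and 0.22 in quintiles that held 5, 17, 23, 14 and 16 of the 75. Of the 7 genes, 4 (Kcnb2, Kcnh7 and Kcnq3 among them) lay in the longest quintile, above 7.54 kb of exon, where 3.81% of all genes were higher at an unadjusted p below 0.05. In each of the 5 quintiles the median of the members was above that of all genes. When each mouse's slope of log2 level on log2 exon length was taken out, 7 members were higher and 3 lower (Kcnab1, Kcnk10 and Kcnn2) at an unadjusted p below 0.05, against 2.12% and 2.29% of all genes. The median log2 fold change was 0.074, and 5 of the 7 genes remained (Kcnb2, Kcnj4, Kcnt2 and Kcnv1 among them), while Kcnq3 and Kcnh7 no longer passed. The slope ran from -0.080 to 0.093 over the adropin group (median 0.035) and from -0.14 to 0.051 over the saline group (median -0.0054).

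Markers of cerebral cortex moved with the channel genes from mouse to mouse. The 8 cortex markers summed to 666 to 1163 TMM-normalized CPM in adropin-treated mice (median 946) and 578 to 880 in saline-treated mice (median 811); 6 of the 8 had log2 fold changes above 0, and Cux2 and Rorb had an unadjusted p below 0.05. The median deviation of the 75 channel genes from their mean over all mice, on the log2 scale, was lowest in saline-treated mouse 5_4 (-0.30), adropin-treated mouse 4_3 (-0.16) and adropin-treated mouse 3_3 (-0.13). It was highest in adropin-treated mice 1_3 (0.26) and 2_4 (0.15). Mice 1_3 and 2_4 were also the highest for the cortex markers (0.34 and 0.30), and mice 6_1, 4_3, 5_4, 3_3 and 8_3, the 5 lowest for these markers, were the 5 lowest for the channel genes. With the cortex marker level as a covariate, 41 of the 75 log2 fold changes were above 0, the median was 0.016, 0 members were higher and 2 (Kcne4 and Kcnk12) lower at an unadjusted p below 0.05, against 1.24% and 2.65% of all genes. Hippocampus markers went the opposite way, with all 8 log2 fold changes below 0 and 3 at an unadjusted p below 0.05, while 0 of the 8 neuron, 7 astrocyte and 7 oligodendrocyte markers passed. All 5 choroid plexus markers tested were lower with adropin at that threshold (median log2 fold change -1.31), with summed levels of 11.1 to 73.4 TMM-normalized CPM (median 18.5) in the adropin group and 12.6 to 2460 (median 20.9) in the saline group, the highest being mouse 8_3. Also lower were 2 of 8 thalamus, 1 of 5 cerebellum and 1 of 8 pericyte and smooth muscle markers, and 1 of 7 microglia markers was higher. Without mouse 8_3, an alternative chosen after seeing the data, 2 of 5 choroid plexus (median log2 fold change -0.67), 5 of 8 hippocampus, 1 of 8 thalamus and 0 of 5 cerebellum markers were lower, and 1 of 8 cortex markers was higher. The part of the markers other than those of cortex in the channel gene values was not tested. The labels do not give the part of the brain taken, and no measure of it other than such markers was used.

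**Figure D4:**
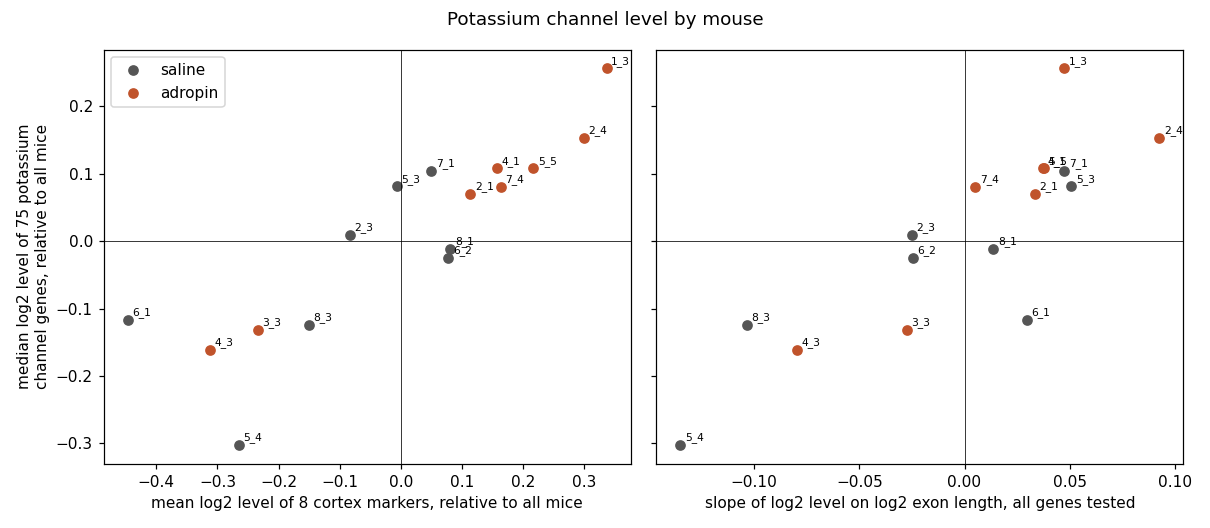
Median log2 level of the 75 potassium channel genes in each mouse relative to all mice (vertical axis), against the mean log2 level of 8 cortex markers (left) and the slope of log2 level on log2 exon length over all genes tested (right). Each point is a labelled mouse, grey for saline and orange for adropin; mice 5_4, 4_3 and 3_3 are lowest and mouse 1_3 is highest.

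Gm42418, a gene placed over ribosomal RNA sequence, took 0.840% to 4.98% of counts (median 2.53%) with adropin and 0.985% to 3.26% (median 1.54%) with saline. With its level as a covariate, 54 of the 75 log2 fold changes were above 0 with a median of 0.065, and Kcnq3 was higher and Kcnk10 lower at an unadjusted p below 0.05, against 0.937% and 1.61% of all genes.

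The members known from choroid plexus epithelium, Kcnj13 and Kcne2, were under the filter. Kcne2 was at 8.67 TMM-normalized CPM in saline-treated mouse 8_3 and at most 0.608 in each of the 15 other mice. Kcnj13 was at 4.55 in mouse 8_3 and at most 0.855 elsewhere, and its exons overlap those of Gigyf2 on the other strand. Mouse 8_3 was the highest for cerebellum markers as well. The two-pore gene Kcnk3, an acid-sensitive channel, also peaked there, at 78.7 against 51.3 in the next saline-treated mouse. Its log2 fold change was -0.090 with mouse 8_3 and 0.033 without it. Without that mouse 5 members were higher and 0 lower at an unadjusted p below 0.05, against 1.27% and 1.5% of all genes, with a median log2 fold change of 0.090. The 250 bases before the RefSeq start of Kcnj13 (GRCm38, chr1:87394730-87394979, minus strand) are given as those of the member tied to this tissue, with the TATAAA letters in capitals.
Kcnj13: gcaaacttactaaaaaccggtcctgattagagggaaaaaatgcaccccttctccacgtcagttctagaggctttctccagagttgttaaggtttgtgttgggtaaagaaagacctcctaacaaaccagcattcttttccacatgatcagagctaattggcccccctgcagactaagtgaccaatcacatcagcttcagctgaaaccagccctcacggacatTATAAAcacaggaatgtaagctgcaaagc

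**Figure D5:**
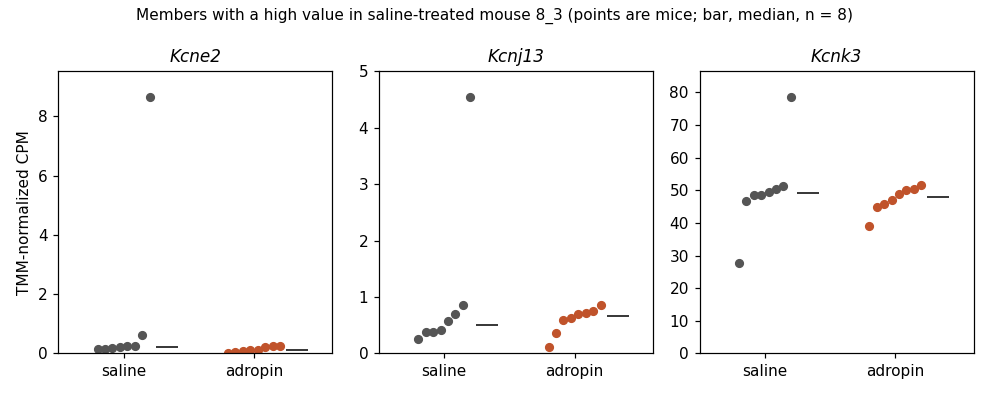
TMM-normalized CPM of Kcne2, Kcnj13 and Kcnk3 in saline-treated and adropin-treated mice, on axes starting at 0. Each point is a mouse, placed in order of its value, and the bar gives the median (n = 8); the top saline point in each panel is mouse 8_3, at 8.67, 4.55 and 78.7.

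Other genes of potassium handling were taken from a list of 32, of which 31 were tested. Of these, 22 had log2 fold changes above 0 (median 0.076), with 2 higher and 0 lower at an unadjusted p below 0.05, where 49.2% of all genes were above 0, 1.86% higher and 2.13% lower. Dpp10, an auxiliary protein of Kcnd channels, was at 145 ± 15.4 against 128 ± 15.3 TMM-normalized CPM (SD), and Adam22, a protein found with Kcna channels along the axon, at 193 ± 16.2 against 174 ± 17.2 (SD). These were the 2 genes, and both had an adjusted p of 0.874 by edgeR's quasi-likelihood test. All 7 auxiliary proteins tested had values above 0 (median log2 fold change 0.11), as did 3 of the 4 pacemaker channels (median 0.14), 3 of the 4 cation-chloride cotransporters (median 0.080) and both sulfonylurea receptors. For the Na,K-ATPase, the pump that restores the potassium gradient, 2 of 6 were above 0 with a median of -0.014.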

How the data were processed

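The authors aligned paired-end reads from poly-A selected RNA to the Ensembl release 76 mouse assembly (GRCm38) with STAR and counted uniquely aligned, unambiguous reads per gene with featureCounts. The deposited counts are raw and were used for all tests; the strand setting is not given in the sources used here. The deposited CPM are the same counts scaled to each library total without TMM factors, and were used only for limma-trend. Of 40757 entries, 276 repeats were dropped, and 355 ribosomal RNA genes were left out.

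TMM factors, the filter (more than 1 CPM in at least 7 mice) and the quasi-likelihood test of edgeR 4.0.16 (R 4.3.3) were applied to all 14949 genes passing it, with Benjamini-Hochberg adjustment over all of them and no covariate. The paper's methods used limma after TMM; limma-voom (limma 3.58.1) and DESeq2 1.42.0 were alternatives. Exon lengths are the union of exons in GENCODE on GRCm38. The 16 mice are separate animals. Any 2 replicates differed beyond counting noise (chi-square per degree of freedom 8.52 to 190). On simulated counts for this comparison over 14949 genes with 200 changed 2-fold, edgeR recovered 195 and made 16 false calls, and 95.1% of intervals held the true value. A 2-fold change is larger than that of any member tested (at most 1.63-fold, in Kcnh5). Recovery of changes of the sizes seen here was not tested.

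The members and gene lists were chosen with earlier results of these data known. Genes were named if their unadjusted p was below 0.05, if among the 5 highest or 5 lowest log2 fold changes, if the most abundant per kb of their subfamily, if on a fixed list of cell-type or well-known channels, or if a mouse stood apart. The values of 3 such genes are not reported here; counts and medians over the members include them. Alternatives were other scalings, filters and tools, pseudocounts of 1 and 0.1, the label numbers as a block, and leaving out each mouse. The exact permutation tests were added after the edgeR results were seen. Library totals of 35026503 to 70314050 limit precision mainly near the 1 CPM minimum.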

Additional observations from a re-analysis of the deposited data

Results flagged for a closer look

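Within a group of 8 mice, 1 mouse lay far from the rest for 6 of 150 comparisons of a tested member and a group, where chance gives about 1 in 20, or 7.5. Of the members under the filter, Kcne2 and Kcnj13 alone were also examined, as members tied to choroid plexus, and each had such a mouse in the saline group. In the adropin group, Kcnd1 was lowest in mouse 4_3, at 8.25 TMM-normalized CPM against 11.5 in the next mouse, and Kcne4, a subunit that dampens other channels, was highest in mouse 1_3, at 2.36 against 1.43. In the saline group, Kcnh7 was lowest in mouse 6_1 (60.3 against 109). In mouse 5_4, Kcnj10 of astrocytes was lowest (68.7 against 117) and the two-pore channel Kcnk2 was highest (101 against 69.3). In mouse 8_3, Kcnk3 (78.7 against 51.3), Kcne2 (8.67 against 0.608) and Kcnj13 (4.55 against 0.853) were highest. Mouse 8_3 was also the highest for the choroid plexus, the cerebellum and the pericyte and smooth muscle markers. The part of these tissues and cells in the 3 values was not tested.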

How the results depend on the processing

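No member passed an adjusted p below 0.05 under any of the 14 alternatives or in the 16 fits that each left out 1 mouse, and the median log2 fold change of the members stayed above 0 in all of them. Leaving out 1 mouse, members higher at an unadjusted p below 0.05 numbered 3 to 17 (1.08% to 6.16% of all genes), those lower 0 to 2 (1.28% to 3.51%), those within 1.5-fold 55 to 62, and the median ran from 0.081 to 0.13; the adjusted counts were 0 throughout. The cause of these shifts was not tested. With no filter, 10 members were higher (2.78% of all genes), Kcnj4 no longer among them, and 2 had a p below 0.05 in the lower direction (3.51% of all genes), Kcne2 and Kcnk16, the latter with counts in 2 mice alone. The covariates for Gm42418 and for cortex markers and the exon length offset were chosen after seeing the data. They gave 1 higher and 1 lower member, 0 and 2, and 7 and 3, where 0.937%, 1.24% and 2.12% of all genes were higher and 1.61%, 2.65% and 2.29% lower. Of 36 named genes fitted, 20 kept the sign of their log2 fold change throughout. The sign turned for Kcnj16 with library size only (-0.0025), and for Kcng1 with limma-voom (0.081) and with limma-trend at a pseudocount of 1 (0.054) or 0.1 (0.057). It turned with the Gm42418 covariate for Kcnab2 (-0.029), Kcnd2 (-0.036), Kcng1 (0.0013) and Kcnmb4 (0.032). With the cortex marker covariate it turned for Kcna1 (-0.070), Kcnab2 (-0.074), Kcnd2 (-0.16), Kcne1l (0.019), Kcng1 (0.24), Kcnh5 (-0.015), Kcnj10 (-0.11), Kcnj8 (-0.086), Kcnmb4 (0.055), Kcnn1 (-0.019) and Kcns1 (-0.11). With the exon length offset it turned for Kcnk1 (0.011) and Kcnt1 (-0.035). Leaving out 1 mouse, values crossed 0 for Kcnd2 (-0.029 to 0.11), Kcng1 (-0.12 to 0.18), Kcnj16 (-0.019 to 0.088), Kcnk1 (-0.078 to 0.021), Kcnk3 (-0.18 to 0.033) and Kcnt1 (-0.022 to 0.083).

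The labels do not say what the numbers of a mouse mean, so mice of both groups share only a number. The deviations of pairs with the same first number had a median correlation of -0.013 over 5 pairs, and those with the same second number -0.055 over 17 pairs. Adropin-treated mice 1_3, 3_3, 4_1 and 4_3 and saline-treated mice 6_1, 6_2, 8_1 and 8_3 shared their first number with no mouse of the other group. For the second number this held for mice 5_5 and 6_2. Such mice add nothing to the difference between groups in a blocked fit, which then rests on fewer mice. With the first number as a replicate block, 37 members lay within 1.5-fold, 5 were higher and 0 lower at an unadjusted p below 0.05 (0.883% and 1.30% of all genes), and 2 of the 7 genes (Kcnt2 among them) remained. Signs turned for Kcnj16 (-0.078), Kcnj8 (-0.0039), Kcnk1 (0.0085) and Kcnk2 (-0.14). With the second number as a block, 3 members were higher, Kcnt2, Kcnv1 and Kcnh6, and 0 lower (0.977% and 1.83% of all genes), and signs turned for Kcng1 (0.052) and Kcnk2 (-0.0038).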

Other observations

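All 18 members under the filter were compared in the fit with no filter on low counts, and 2 of them, Kcnj5 and Kcnq1, also in the fit on genes with at least 10 counts in every mouse. With no filter, Kcne2 had a log2 fold change of -3.23, with 400 counts in saline-treated mouse 8_3 and at most 21 in each other mouse. Kcnk16, a two-pore channel, had an unadjusted p below 0.05 there on 2 counts in each of saline-treated mice 2_3 and 5_3 and 0 in the 14 other mice, too few for a fold change. Neither had an adjusted call in edgeR. GC content of exons showed less order than length: from the lowest to the highest quintile, the median log2 fold change of all genes went from 0.0061 to -0.014, while 4 of the 7 genes with an unadjusted p below 0.05 lay in the lowest quintile, which held 10 of the 75 members. In that quintile 1.94% of all genes were higher at that threshold, against 1.64% to 2.14% in the others.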
